A study of Mus musculus with 6 samples.

Results

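The urea cycle and ammonia handling enzymes were examined in RNA sequencing of mouse liver after a short cholesterol feeding. They are 10 genes, among them Cps1, Otc, Ass1, Asl, Nags, Slc25a15, Glul, Gls2 and Oat. The genes were chosen by name from the 20673 genes in the deposited tables. No measured value entered that rule, but earlier results of these data were known when the genes were listed. Adult C57BL/6J mice were given either a regular diet (RD), a standard Teklad rodent chow, or a high-cholesterol diet (HCD) with cocoa butter, cholesterol and sodium cholate for 3 days. Each diet was represented by 3 liver libraries, all taken without infection or surgery. The RD and HCD libraries carry names of different series, and the labels do not say why. Anything that differs between these series cannot be told apart from diet. The diets differed in cholesterol, fat and cholate at once, so the parts these play cannot be told apart. Male and female mice were used in the study, without a statement of which sex gave which liver. Nor do the sources say outright that each library is a separate mouse, and p-values measure the spread between these libraries.

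Ammonia from amino acid breakdown is toxic to the brain, and the liver turns it into urea. The cycle begins in the mitochondria of hepatocytes, where ammonia is built into carbamoyl phosphate and then citrulline, and it ends in the cytosol, where urea is released and ornithine regained. Hepatocytes around the portal vein hold most of the cycle and the liver glutaminase, which frees ammonia from glutamine. A thin layer of hepatocytes around the central vein catches the ammonia that escapes, by making glutamine from it.

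None of the 10 genes was called different between the diets. The quasi-likelihood test of edgeR was run on 13105 genes, with p adjusted over all of them by Benjamini-Hochberg. Calls were made below an adjusted p of 0.05 and covered 428 genes (3.27%), 255 higher with HCD and 173 lower. All 10 genes passed the filter on low counts. At an unadjusted p under 0.05 there was 1 gene of the 10, Slc25a15, where 20.9% of all genes tested passed that mark. DESeq2 called 0 of the 10 as well, where it called 8.54% of its 13092 genes. It put 2 of the 10 (Asl and Slc25a15) at an unadjusted p under 0.05, beside 20.9% of its genes. Expressed as HCD over RD, the log2 fold change lay below 0 for 7 genes and above 0 for 3. Its median over the 10 was -0.16, beside 0.0074 over all genes tested. Each liver left out moved that median by over 1.5 times, to -0.24, -0.27 and -0.059 without RD replicates 1, 2 and 3 and to -0.24, -0.078 and -0.32 without HCD replicates 1, 2 and 3. The median size of the difference, regardless of sign, was 0.20 on the log2 scale for the 10 genes and 0.31 for all genes.

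The replicate error still left room for moderate differences. The 95% interval of the log2 fold change held 0 for 9 of the 10 genes. An increase of 2-fold lay outside the interval of every one of the 10, the highest upper bound being 1.91-fold for Asl. A decrease to 0.5-fold lay inside the interval of Oat alone, whose lower bound was 0.423-fold. These intervals are for single genes and are not widened for the number of genes looked at.

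**Figure D1:**
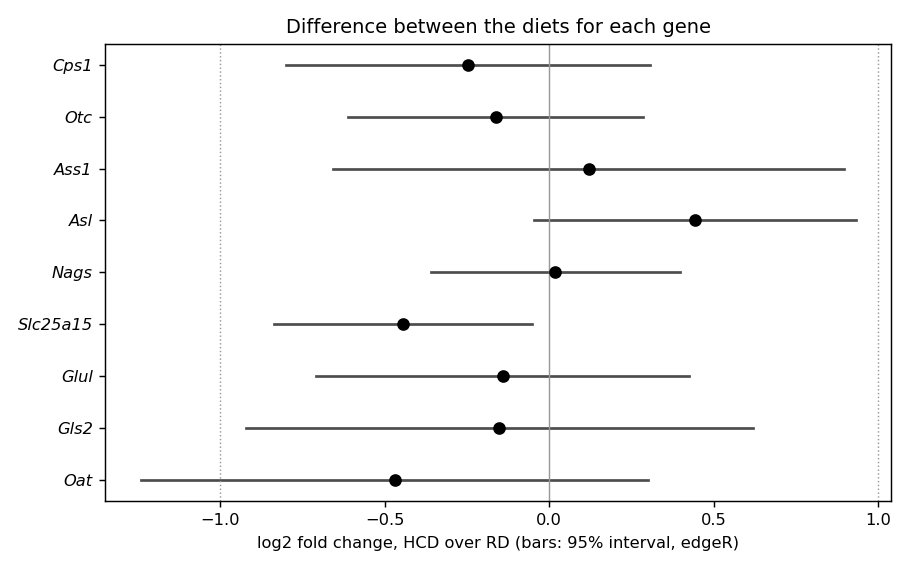
The horizontal axis is the log2 fold change of HCD over RD from edgeR, with 1 row per gene. Points are the estimates, bars the 95% intervals, and dotted lines mark 2-fold changes. Of the 9 genes shown, only the bar of Slc25a15 stays on one side of 0, from -0.84 to -0.052, and only the bar of Oat passes the line at -1.

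Levels can be compared between genes only per length, which the deposited FPKM values (fragments per kilobase of gene, scaled to the library) allow. By mean FPKM over the 6 livers the order of 9 of them was Ass1 (1667), Cps1 (851), Oat (336), Glul (330.0), Gls2 (171), Otc (165), Asl (164), Slc25a15 (78.8) and Nags (44.8). Ass1 ranked 57th and Cps1 97th among the 13105 genes tested, and Nags ranked 1323rd. The steps that held in all 6 livers were Ass1 over Cps1, Cps1 over Oat, Asl over Slc25a15 and Slc25a15 over Nags. Oat and Glul, Gls2 and Otc, and Otc and Asl did not differ beyond their spread, and their order held in 4, 2 and 3 of the 6 livers. Glul was above Gls2 in 5 livers and below it in RD replicate 3, by log2 ratios from -0.36 to 1.85.

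The mitochondrial entry of the cycle is set by Nags, Cps1, Otc and Slc25a15. Nags makes N-acetylglutamate, without which carbamoyl phosphate synthetase does not work. Its RNA (ENSMUSG00000048217, chromosome 11 from 102145513 to 102149477 in GRCm38) was at 82.5, 96.1 and 78.8 CPM in RD replicates 1, 2 and 3 and at 73.4, 81.5 and 106 CPM in HCD replicates 1, 2 and 3, where CPM are counts relative to library size, scaled by edgeR's TMM factors. The values of the diets ran through each other, and the lowest and the highest both belonged to HCD. The Nags log2 fold change was 0.019 (standard error 0.17, adjusted p = 0.959), the smallest of the 10, with a 95% interval from -0.36 to 0.40. Its sign turned in 5 of the 16 alternatives. An antisense gene, Gm11586, overlaps 443 bases of the Nags exons, and it held between 0 and 6 counts in a liver.

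Cps1 encodes carbamoyl phosphate synthetase, the first and rate-limiting enzyme of the cycle and one of the most abundant proteins of liver mitochondria. Cps1 (ENSMUSG00000025991, chromosome 1 from 67123026 to 67231259, 38 exons and 1500 codons in its main transcript) was at 3366, 2766 and 4297 CPM in RD replicates 1 to 3 and at 3261, 2167 and 3360 CPM in HCD replicates 1 to 3. The HCD values lay low in the range of RD, with 2 of the 3 inside it. Its log2 fold change was -0.25 (standard error 0.24, adjusted p = 0.5995), or 0.843-fold with an interval from 0.574 to 1.24. It was below 0 in all 16 alternatives, between -0.39 without RD replicate 2 and -0.070 without RD replicate 3.

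Otc, the X-linked ornithine transcarbamylase, joins carbamoyl phosphate to ornithine to give citrulline. Otc (ENSMUSG00000031173, chromosome X from 10252305 to 10321024) was at 474, 449 and 579 CPM in the RD livers and at 389, 390.1 and 563 CPM in the HCD livers, in the order of replicates 1 to 3. HCD replicates 1 and 2 were below every RD liver, and HCD replicate 3 was near the highest. The Otc log2 fold change was -0.16 (standard error 0.20, adjusted p = 0.681), and without a liver it lay between -0.37 (HCD replicate 3 left out, adjusted p = 0.301) and -0.048 (RD replicate 3 left out, adjusted p = 0.930). It was also closer to 0 without HCD replicate 1 or 2, at -0.072 and -0.079.

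Slc25a15 encodes the carrier that brings ornithine into the mitochondrion and takes citrulline out. Slc25a15 (ENSMUSG00000031482, chromosome 8 from 22375551 to 22398597) was at 343, 281 and 417 CPM in RD replicates 1 to 3 and at 255, 240 and 270.1 CPM in HCD replicates 1 to 3. All 3 HCD livers were below all 3 RD livers, which makes it the single gene of the 10 whose diets did not overlap, where 27.6% of all genes tested did not overlap. The log2 fold change of Slc25a15 was -0.44 (standard error 0.17, adjusted p = 0.191), or 0.735-fold with an interval from 0.560 to 0.965. The exact two-sided permutation test gave p = 0.1, the smallest that 3 livers against 3 allow. In FPKM, the diets overlapped by a narrow margin, 71.7 in RD replicate 2 against 72.0 in HCD replicate 3. The adjusted p lay between 0.101 and 0.403 over the alternatives, and the direction was the same in all of them. The log2 fold change went from -0.58 without RD replicate 2 to -0.30 without RD replicate 3.

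Ass1 and Asl act in the cytosol. Ass1 encodes argininosuccinate synthetase, which brings in the second nitrogen of urea as aspartate. Ass1 (ENSMUSG00000076441, chromosome 2 from 31470207 to 31520672) was at 2183, 1859 and 3769 CPM in the RD livers and at 2924, 1782 and 3786 CPM in the HCD livers. The lowest and the highest livers of one diet nearly matched those of the other, and the spread within a diet, 2.03-fold with RD and 2.12-fold with HCD, exceeded the difference between the diet means. The Ass1 log2 fold change was 0.12 (standard error 0.34, adjusted p = 0.871), and its sign turned without RD replicate 2 (-0.079) and without HCD replicate 3 (-0.15).

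Part of what may be Ass1 RNA was counted elsewhere. Gm5424 (ENSMUSG00000046687, chromosome 10 from 62071123 to 62072362) is annotated as a processed pseudogene, an intronless copy of an mRNA inserted in the genome. Its 1240 annotated bases aligned to the Ass1 transcript without gaps, with 6 substitutions, all in the coding part, an identity of 99.5%. The longest stretch without a difference was 398 bases, and a fragment that lies wholly within it cannot be placed by sequence alone. How many fragments that concerns was not tested. A stretch of 120 coding bases that holds as many substitutions as any of that length is shown, because it is where a read can best tell the genes apart. It holds 2 substitutions, in capitals, and lies at positions 512 to 631 of the Ass1 transcript ENSMUST00000102840.4 (GENCODE M21, plus strand of chromosome 2) and at chr10:62071432-62071551 of GRCm38, plus strand.
Ass1: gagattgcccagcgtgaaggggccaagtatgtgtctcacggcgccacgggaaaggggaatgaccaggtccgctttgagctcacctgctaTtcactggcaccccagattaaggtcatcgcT
Gm5424: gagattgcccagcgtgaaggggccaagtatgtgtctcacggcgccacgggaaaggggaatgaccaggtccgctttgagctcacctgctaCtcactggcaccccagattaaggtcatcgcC

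With RD, Gm5424 held 7942, 4688 and 18207 counts, and with HCD it held 9920, 5032 and 9240, in the order of replicates 1 to 3. By mean FPKM it ranked 124th of the genes tested. Its share of the counts of both genes was nearly the same in every liver, 15.7% ± 1.39 (SD, n = 3) with RD and 15.8% ± 1.03 with HCD. Whether these reads came from Ass1 mRNA or from Gm5424 itself was not tested. With the counts of both added together, an alternative chosen after seeing the data, the log2 fold change was 0.12 (standard error 0.35, adjusted p = 0.880), close to the value for Ass1 alone. The level of Ass1 would be higher with these reads included.

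**Figure D2:**
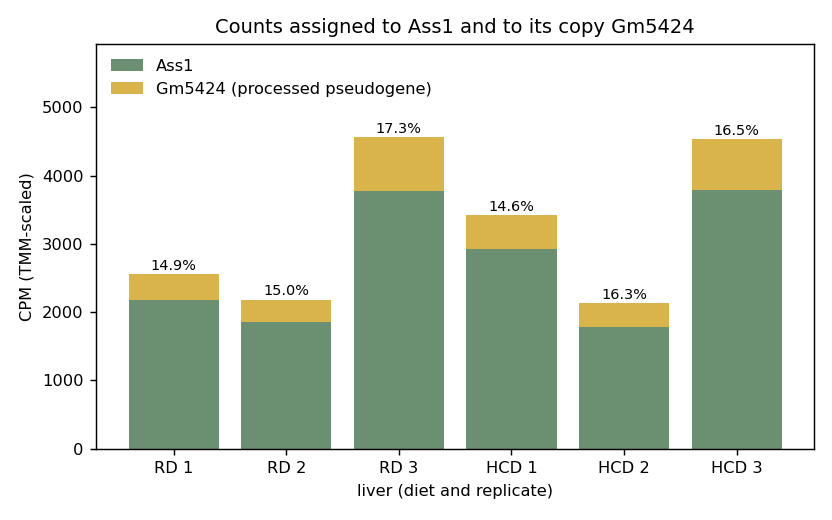
The vertical axis is TMM-scaled CPM, stacked for Ass1 (lower bar) and its processed pseudogene Gm5424 (upper bar), with 1 bar for each liver. The percentage above each bar is the share of Gm5424 in the summed counts, between 14.6% and 17.3%.

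Asl encodes argininosuccinate lyase, which releases arginine. Asl (ENSMUSG00000025533, chromosome 5 from 130011258 to 130029247) was at 415, 398 and 552 CPM in RD replicates 1 to 3 and at 613, 479 and 763 CPM in HCD replicates 1 to 3. HCD replicates 1 and 3 were above every RD liver, and HCD replicate 2 lay below RD replicate 3. It had the highest log2 fold change of the 10 genes, 0.44 (standard error 0.21, adjusted p = 0.280), or 1.36-fold with an interval from 0.968 to 1.91. In none of the alternatives was Asl called, with an adjusted p between 0.161 and 0.587, and its log2 fold change stayed above 0 in each, between 0.26 and 0.60.

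**Figure D3:**
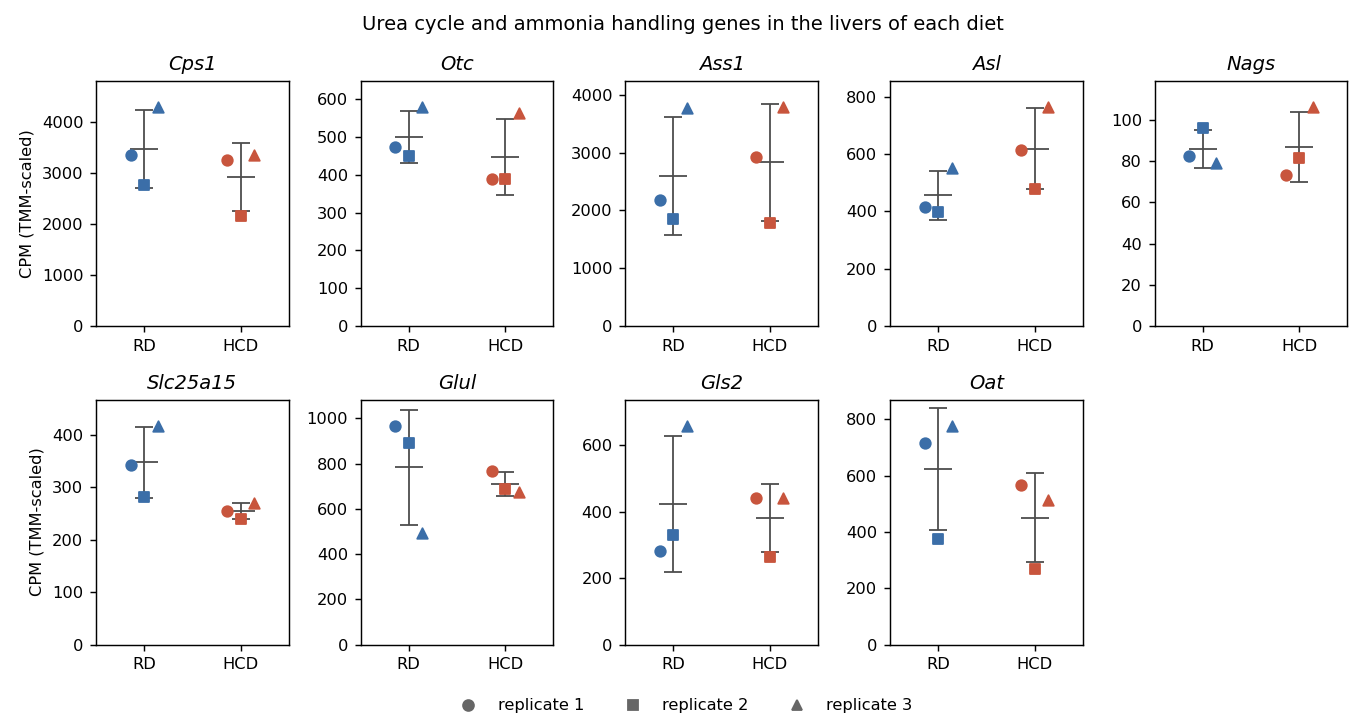
Each of the 9 panels shows 1 gene, with TMM-scaled CPM from 0 on the vertical axis and the diets side by side. Symbols mark the 3 livers of each diet by replicate number, horizontal dashes the mean, and bars the SD. Slc25a15 is the only panel in which the symbols of the diets do not overlap, at 240 to 270.1 CPM with HCD and 281 to 417 with RD.

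The remaining genes handle glutamine and ornithine beside the cycle. Gls2 encodes the liver-type glutaminase of periportal hepatocytes. Gls2 (ENSMUSG00000044005, chromosome 10 from 128194457 to 128210004) was at 281, 331 and 659 CPM in RD replicates 1 to 3 and at 441, 263 and 440.2 CPM in HCD replicates 1 to 3. RD replicate 3 alone was above 441 CPM, and the other livers of both diets shared a range. The Gls2 log2 fold change was -0.15 (standard error 0.34, adjusted p = 0.835), and it was above 0 without RD replicate 3 (0.31, adjusted p = 0.557) or HCD replicate 2 (0.051, adjusted p = 0.952). Gls2 shares 97 bases of exon with Spryd4 on the opposite strand, which held between 281 and 645 counts in a liver beside 3813 to 15170 of Gls2, and no source used here states whether the kit kept strand.

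Glul encodes glutamine synthetase, the defining enzyme of the hepatocytes next to the central vein. Glul (ENSMUSG00000026473, chromosome 1 from 153899944 to 153909723) was at 967, 889 and 492 CPM in RD replicates 1 to 3 and at 769, 685 and 675 CPM in HCD replicates 1 to 3. All 3 HCD livers lay between RD replicate 3 and the other RD livers. Their coefficient of variation was 7.27% against 32.6% with RD, a difference in spread that was not tested. The Glul log2 fold change was -0.14 (standard error 0.25, adjusted p = 0.785), and it ranged from -0.39 without RD replicate 3 to 0.036 without RD replicate 1. Its pseudogene Glns-ps1, which is 96.8% identical over 1126 aligned bases, held between 2 and 15 counts in a liver.

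Oat encodes ornithine aminotransferase, which takes ornithine out of the cycle toward glutamate in the same pericentral layer. Oat (ENSMUSG00000030934, chromosome 7 from 132557478 to 132576398) was at 716, 375 and 778 CPM in the RD livers and at 566, 270 and 515 CPM in the HCD livers. Replicate 2 was the low liver of both diets, though the labels do not state that replicate numbers tie livers together. Oat had the lowest log2 fold change of the 10, -0.47 (standard error 0.34, adjusted p = 0.463), and with 2.88-fold between its highest and lowest liver it also had the widest spread. Its interval, from 0.423-fold to 1.23-fold, was accordingly wide. Without a liver the Oat value lay between -0.74 (RD replicate 2 left out) and -0.21 (HCD replicate 2 left out), and it was -0.28 without RD replicate 3.

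Much of the variation in these genes lay between livers of the same diet. RD replicate 3 had the highest value of the RD livers in 8 of the 10 genes, all but Nags and Glul, beside 36.6% of all genes tested. HCD replicate 2 had the lowest value of the HCD livers in 7 genes, all but Otc, Nags and Glul, beside 31.2% of all genes tested. Both held for 7 genes, Cps1, Ass1, Asl, Slc25a15, Gls2 and Oat among them, beside 13.2% of all genes. The median deviation of the 10 genes from their mean over the 6 livers was 0.48 on the log2 scale in RD replicate 3 and -0.35 in HCD replicate 2, and it lay between -0.13 and 0.15 in the other 4 livers. Glul went the other way in RD replicate 3, where it had its lowest value, -0.57. The genes within this set therefore cannot be read as independent of each other across livers, which was not tested. Nags and Glul shared neither order.

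**Figure D4:**
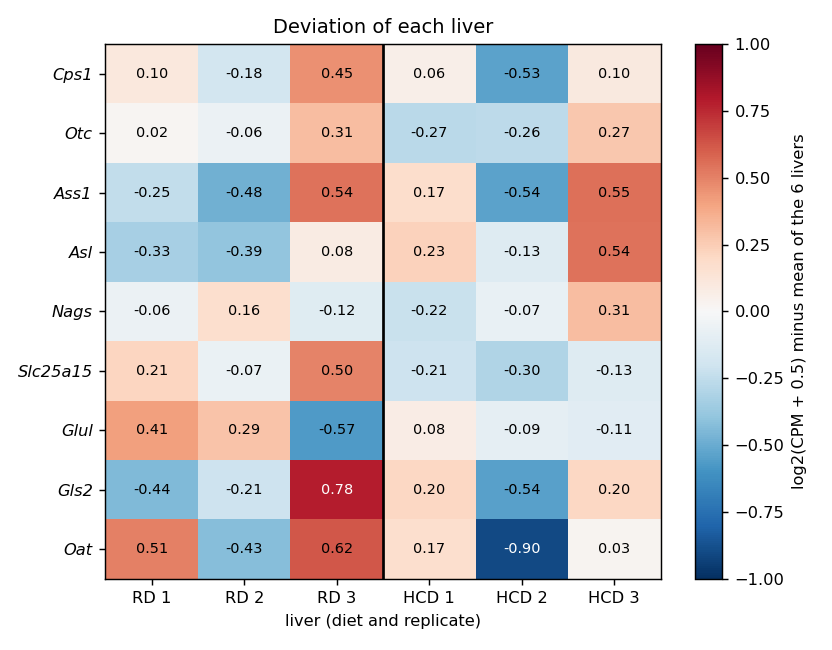
Rows are 9 of the genes and columns livers, with the RD livers left of the line and the HCD livers right of it. Each cell gives log2(CPM + 0.5) minus the mean of the 6 livers, red for higher and blue for lower. RD replicate 3 is red for every gene but Nags and Glul, and HCD replicate 2 is blue in every row.

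Of all counts in a library, the 10 genes together took 1.03%, 0.890% and 1.32% with RD and 1.10%, 0.708% and 1.03% with HCD. With RD the mean was 1.08% ± 0.221 (SD, n = 3), against 0.946% ± 0.210 (SD, n = 3) with HCD. Values of the diets overlapped, and the highest and lowest shares were again those of RD replicate 3 and HCD replicate 2. Likeness was ranked over 9116 other genes whose mean reached 5 CPM. The values most like those of Cps1 over the 6 livers were those of Dcaf7, 1810037I17Rik and Slc27a5, with Pearson's r of 0.988, 0.981 and 0.971. Most like Glul were Pwp1, Lrrk1 and Scaf1, with r of 0.988, 0.984 and 0.983. These are the highest of many correlations over few livers and are given as a description.

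Other genes of nitrogen metabolism were counted from 4 lists of 74 genes that are none of the 10. Of these, 72 were in the tables, 65 were tested and 2 were called, both lower with HCD, at 3.27% of all genes called. The median log2 fold change of the 65 was -0.042, with 29 above 0 and 36 below. By list, 1 of 21 genes of nitrogen supply and transport was called, 1 of 13 genes of ornithine, proline and arginine use, 0 of 19 genes of ammonia-releasing amino acid breakdown and 0 of 12 regulators of the urea cycle. At an unadjusted p under 0.05 these lists had 3, 3, 3 and 3 genes, 7 of them higher and 5 lower. Of all genes tested, 20.9% passed that mark. Among the most abundant genes, Glud1, the mitochondrial glutamate dehydrogenase that releases ammonia from glutamate, stood at 0.36 on the log2 scale (adjusted p = 0.288) and Slc38a4, a carrier of neutral amino acids, -0.095 (adjusted p = 0.870). Hpd and Tat, both of tyrosine breakdown, stood at 0.71 (adjusted p = 0.131) and -0.62 (adjusted p = 0.534). Gamt, Agmat and Prodh2, of creatine, agmatine and hydroxyproline metabolism, stood at -0.19, -0.089 and 0.62 (adjusted p = 0.784, 0.812 and 0.136). The transcription factors Cebpa and Hnf4a and the glucagon receptor Gcgr stood at -0.19, -0.36 and -0.067 (adjusted p = 0.576, 0.279 and 0.841).

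Slc38a3 encodes a glutamine carrier of the hepatocyte membrane. Slc38a3 was at 1162, 1074 and 1651 CPM in RD replicates 1 to 3 and at 671, 555 and 736 CPM in HCD replicates 1 to 3. The diets stood well apart, and Slc38a3 fell by 0.99 on the log2 scale (standard error 0.21, adjusted p = 0.0462), to 0.505-fold. The call was near the threshold, and Slc38a3 was called in 5 of 16 alternatives. It was not called without any one of the 6 livers (adjusted p from 0.0676 to 0.139), while the log2 fold change stayed between -1.11 and -0.78.

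Azin1 encodes the antizyme inhibitor, which protects ornithine decarboxylase, the enzyme that leads ornithine to polyamines, from breakdown. Azin1 was at 79.2, 83.0 and 70.3 CPM in RD replicates 1 to 3 and at 41.6, 53.2 and 38.7 CPM in HCD replicates 1 to 3. Azin1 fell by 0.80 on the log2 scale (standard error 0.15, adjusted p = 0.0341), with no overlap. It was called in 9 of 16 alternatives, and it was not called without RD replicate 1, 2 or 3 (adjusted p = 0.148, 0.154 and 0.0694) or HCD replicate 1 or 3 (0.0686 and 0.0966). Odc1, the decarboxylase itself, stood at -0.37 (adjusted p = 0.325). An antisense gene, Gm49077, matches 359 bases of the Azin1 transcript.

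**Figure D5:**
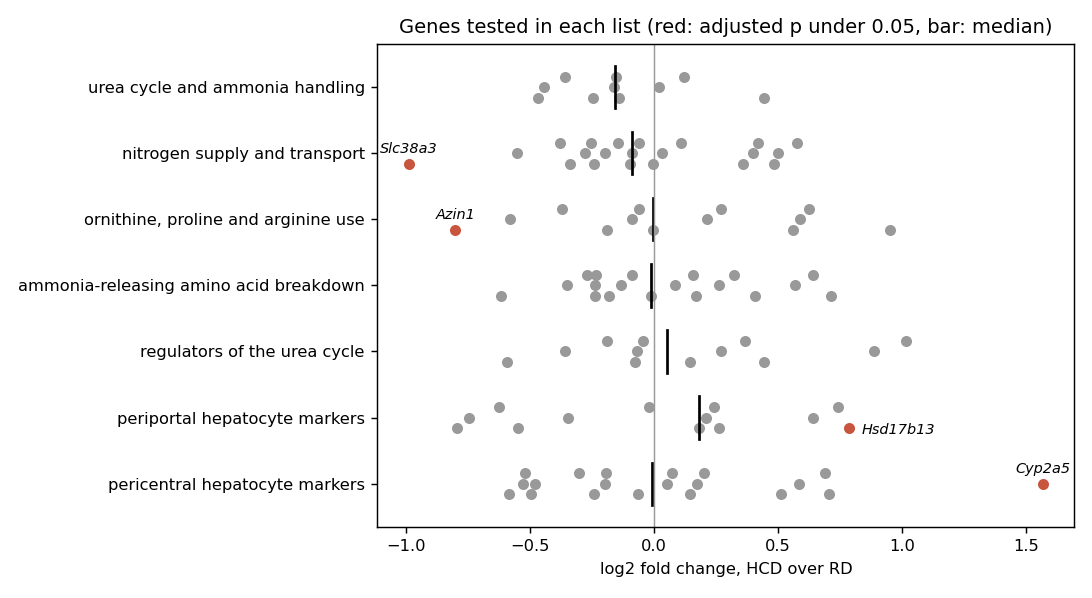
The horizontal axis is the log2 fold change of HCD over RD, with 1 row for each list and 1 point for each gene tested; zonation rows leave out the 10 enzymes. Red points are genes with an adjusted p under 0.05 and vertical bars are list medians. The row of the 10 enzymes has no red point, and Slc38a3 and Azin1 are the red points of the metabolic lists.

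Gls2 is a periportal marker and Glul and Oat pericentral ones, and other markers of that axis were counted too. Of 13 further periportal markers 1 was called, Hsd17b13, a lipid droplet dehydrogenase. Of 20 further pericentral markers 1 was called, Cyp2a5, a cytochrome P450, where 3.27% of all genes tested were called. The medians were 0.18 and -0.0061. Hsd17b13 rose by 0.79 on the log2 scale (adjusted p = 0.0400) and was called in 6 of 16 alternatives, with an adjusted p between 7.8e-05 and 0.185. It was not called without RD replicate 1, 2 or 3 or HCD replicate 1 or 3 (adjusted p from 0.0580 to 0.185). Cyp2a5 rose by 1.57 (adjusted p = 0.0124) and was called in 14 of 16, but not without RD replicate 1 or 2 (adjusted p = 0.0696 and 0.0727). Reads of Cyp2a5 can be shared with Cyp2a4, which is 98.2% identical over 1739 bases and held between 0 and 12999 counts in a liver. At an unadjusted p under 0.05, 2 periportal markers were higher and 0 lower, and 3 pericentral markers were higher and 2 lower, Cyp2a5 and Hsd17b13 included. Of all genes tested, 20.9% passed that mark. The other abundant markers stood at 0.21 for Pck1, -0.55 for Cyp2f2, 0.24 for Pigr, 0.17 for Cyp2e1, 0.14 for Rgn and -0.19 for Cyp1a2 (adjusted p from 0.348 to 0.870).

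Library totals ran from 13771630 to 23129576 counts for RD and from 13935491 to 18545549 for HCD. Albumin, the main secreted protein of hepatocytes, took 6.53% to 9.52% of them. In bulk tissue, fewer cells of a type and less RNA per cell cannot be told apart. In HCD replicate 1 there were 5032 counts of Xist, the RNA of the inactive X chromosome, and 0 counts over 4 Y-linked genes, while the other 5 livers had 0 counts of Xist and 1075 to 2666 Y-linked counts. All 3 RD livers thus had the male pattern and 1 HCD liver the female one. Without that liver the log2 fold change of each of the 10 genes kept its sign, but some sizes moved. Otc went from -0.16 to -0.072, Gls2 from -0.15 to -0.27, Nags from 0.019 to 0.13 and Oat from -0.47 to -0.67. Asl and Slc25a15 hardly moved, to 0.45 and -0.45. The part of sex in the values of the 10 genes was not tested. Of the lists for other cells, each given with its summed FPKM, Kupffer cell markers ran from 121 to 206 with RD and 184 to 380 with HCD (1 of 9 called, Cd68). All 9 had a log2 fold change above 0, with a median of 0.91, and 5 of them an unadjusted p under 0.05. For this list and those that follow, the shares of all genes tested were 3.27% called, 20.9% at that mark and 50.7% above 0. Red cell markers ran from 122.6 to 260 and from 330 to 744 (2 of 5 called, Hba-a1 and Hbb-bs), with 4 of the 5 log2 fold changes above 0 and a median of 2.28. The exception was Alas2, at -0.70 (adjusted p = 0.613), which was at 8.24 CPM in HCD replicate 1 and between 97.0 and 154 CPM in the other livers. Leukocyte markers ran from 5.17 to 9.24 and from 9.11 to 13.97, and endothelial markers from 34.4 to 63.1 and from 44.5 to 70.8 (0 of 4 and 0 of 8 called). Stellate cell markers ran from 42.9 to 44.4 and from 44.2 to 74.5, and cholangiocyte markers from 28.7 to 73.8 and from 52.9 to 78.6 (0 of 8 and 0 of 5 called). The stellate log2 fold changes were above 0 for all 8 genes (median 0.51, 2 at an unadjusted p under 0.05), the leukocyte ones for all 4 (median 0.42), the endothelial ones for 6 of 8 (median 0.24) and the cholangiocyte ones for 4 of 5 (median 0.60). Of the intestinal list, from 41.3 to 62.0 and from 174 to 225, 1 gene was tested and called, Fabp2, while Vil1 averaged 0.085 FPKM. Hepatocyte markers ran from 59414 to 81357 and from 65146 to 93976 (0 of 6 called), with a median log2 fold change of -0.24. The part of these differences in the values of the 10 genes was not tested.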

How the data were processed

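The 6 libraries were grouped by diet from the sample labels. The authors deposited read counts per gene, unnormalized, and FPKM, scaled by gene length and a library total that is not stated. Deposited log2 fold changes, with p-values by the authors, hold their own comparison and were not used. Per the labels, STAR, HTSeq, DESeq2 and edgeR were used on GRCm39, without roles or versions; yet counts and FPKM imply gene lengths that matched GENCODE M21 (GRCm38) within 0.1% for 95.1% to 95.3% of genes and for all 10 enzymes, so positions are given from that release, to which 20666 identifiers matched. Strand and read length are not given in the sources used here.

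Counts were fitted in R 4.3.3 with edgeR 4.0.16 (filterByExpr by diet, TMM, quasi-likelihood F test of diet, no covariates, Benjamini-Hochberg over all genes), checked on simulated data. Depth of 13771630 to 23129576 counts means that 3 counts equal 0.130 to 0.243 TMM-scaled CPM, for counting error only. Alternatives were upper-quartile or RLE factors, library sizes alone, DESeq2 1.42.0, no filter, a mean of at least 50 counts, limma 3.58.1 on log2 of FPKM plus 1 or 0.1, offsets for a length trend (loess, span 0.5), the replicate number as a block, each liver left out, other thresholds, and Gm5424 added to Ass1. The Gm5424 alternative, and the alternatives followed for Slc38a3, Azin1, Hsd17b13 and Cyp2a5, were chosen after seeing the data. Copies were sought with minimap2 2.31 (at least 200 bases, 90% identity). Python 3.11.15 with matplotlib 3.10.9 drew the figures. The rule names all 10 enzymes, of which 1 is not reported here singly but stays in counts and medians over the 10; it also names every called gene and otherwise the 3 most abundant of each metabolic or zonation list, of which another gene is not reported here, and the 3 genes most like Cps1 and Glul. Odc1 and Vil1 were named after their values were seen. Genes and lists were chosen with earlier results of these data known.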

Additional observations from a re-analysis of the deposited data

How the results depend on the processing

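None of the 10 enzymes was called under any of the 16 refits, at an adjusted p under 0.05 in each, or at one under 0.01; at an unadjusted p under 0.05 there was 1. Non-overlapping diets were found for 0 of the 10 in FPKM (27.4% of all genes) and 2 with library sizes alone (26.9%), against 1. In 150 of the 160 planned refits of single enzymes the direction was kept; the exceptions were not past the threshold. They were Nags at -0.063 with library sizes alone and -0.016 with the length-trend correction, and 8 fits without a liver. Leaving out livers gave log2 fold changes from -0.15 to 0.48 for Ass1, -0.16 to 0.13 for Nags, -0.39 to 0.036 for Glul and -0.38 to 0.31 for Gls2. Negative values of Ass1 were -0.079 and -0.15 (without RD replicate 2 and HCD replicate 3), and of Nags -0.012, -0.041 and -0.16 (without RD replicates 1 and 3 and HCD replicate 3). Gls2 was at 0.31 without RD replicate 3 and 0.051 without HCD replicate 2. The cause was not tested.

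Over all genes, 428 calls became 1118 with DESeq2, 649 without the filter, 251 with the length-trend correction and 136 with the replicate block, and 36 to 335 without a liver (36 without RD replicate 1, 51 without RD replicate 2). Of the other metabolic genes, 2 calls became 7 with DESeq2, 1 with upper-quartile factors or either FPKM fit, 0 with the length-trend correction or the replicate block, and 0 to 1 without a liver. Same-numbered livers deviated with correlations of -0.084, 0.12 and -0.030. Of the RD livers, only replicate 2 was most like the HCD liver of its number. With so few livers, these values cannot settle whether the numbers pair them. In the block fit 3 enzymes had an unadjusted p under 0.05, beside 19.8% of all genes, and 0 were called. Over all genes, livers of one diet differed by a chi-square of 30.3 to 157 per degree of freedom, where counting error alone gives about 1.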
